A study of Mus musculus with 12 samples.

Results

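The oxidative phosphorylation (OXPHOS) genes described here are the subunit genes of the respiratory chain and of ATP synthase, 94 of the 55401 genes in the count table. They were chosen by symbol: complex I (Nduf), complex II (Sdh), complex III (Uqcr), complex IV (Cox4 to Cox8), complex V (Atp5) and the protein genes of the mitochondrial genome (mt-). A gene needed at least 10 counts in every tumor. The 94 genes were 81 nuclear genes and 13 mitochondrial genes, and both sets are given apart. Of 110 matching symbols, 8 were left out for a symbol with -ps and 8 were under the minimum in at least 1 tumor. Among those with -ps, Ndufb1-ps held 788 to 1452 counts in a tumor, and the others held at most 63. Ndufb4c and Cox6c2 are annotated as processed pseudogenes but have no -ps in the symbol, and they are counted among the 81 nuclear genes. Just outside the minimum were Cox6a2 and Ndufs6b with a lowest count of 9, and just inside it were Cox4i2 and Cox7a1 with a lowest count of 19.

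The study asked how inorganic arsenic (iAs) and adipose-derived stromal cells (ASC) change tumors of TC2Ras, a mouse prostate cancer cell line. RNA was sequenced from 12 tumors taken 21 days after 125000 cells were implanted under the skin of both flanks, and the tumors of the left and right flank of a mouse were combined. Control tumors grew from TC2Ras cells in mice drinking water with 0 ppb iAs, and ASC tumors grew from TC2Ras cells mixed with 1% ASC-GFP cells under the same water. As300 tumors grew from TC2Ras cells alone in mice drinking 300 ppb iAs, and ASC_As300 tumors had both the ASC-GFP cells and 300 ppb iAs, with 3 tumors in each of the 4 groups. All mice ate low-arsenic AIN-76A chow and drank Milli-Q water for a period before implantation. ASC-GFP cells were primary cells isolated from transgenic mice on the C57BL/6 background that express GFP, and every tumor also holds cells of the host. The cell type in the sample labels is the stromal cell, but the protocols extract RNA from pieces of tumor, and each library is taken as a tumor here. The strain, sex and age of the tumor-bearing mice are not given in the sources used here.

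The respiratory chain passes electrons from NADH (complex I) or succinate (complex II) through complex III and cytochrome c to complex IV, which reduces oxygen, and ATP synthase (complex V) uses the proton gradient so formed. Complexes I, III, IV and V hold subunits from both genomes, while complex II is wholly nuclear. The mitochondrial genes are transcribed together as long polycistronic RNAs from the circular genome and cut apart, so that their levels also reflect processing and stability. Nuclear subunits are made in the cytosol and imported. Arsenic is known as a poison of mitochondrial enzymes.

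Levels per length differed widely between members. Given per kb of exon as CPM (counts scaled to a common library size with TMM normalization) and averaged over the 12 tumors, mt-Co1, the catalytic subunit of complex IV, was at 6102 CPM per kb, the highest of the mitochondrial members, and mt-Nd3 of complex I was the lowest at 479.7. Among nuclear members, Atp5b, the catalytic beta subunit of ATP synthase, was at 285.9 CPM per kb and Cox8a of complex IV at 280.9, the highest of their complexes. The highest in the other complexes were Ndufb11 at 102.8, Uqcr10 at 101.8 and Sdhd at 91.3 CPM per kb. The lowest were Cox4i2 at 1.70, Ndufb2 at 2.76, Atp5s at 4.44, Sdhc at 25.1 and Uqcrq at 27.3 CPM per kb. Lengths are of all annotated exons of a gene together, so that a gene with long rarely used exons appears low on this scale.

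As a share of all counts, mitochondrial genes were highest and nuclear genes lowest in Control tumors. The 13 mitochondrial genes held 3.31%, 3.13% and 3.39% of the counts in the 3 Control tumors, against 2.63% to 2.79% in ASC, 2.43% to 2.89% in As300 and 2.32% to 2.93% in ASC_As300. The 81 nuclear genes held 0.837%, 0.851% and 0.853% of the counts in Control, against 0.868% to 1.03% in ASC, 0.883% to 1.07% in As300 and 0.878% to 0.957% in ASC_As300. No treated tumor overlapped with Control in either share. Nuclear counts per 100 mitochondrial counts were 25.9 ± 1.17 (SD, n = 3) in Control, 34.0 ± 2.54 in ASC, 37.1 ± 6.33 in As300 and 35.1 ± 5.67 in ASC_As300, each with 3 tumors. The 3 treated groups overlapped with one another in all of these shares. In bulk tumors, fewer cells of a type and less RNA per cell cannot be told apart.

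**Figure D1:**
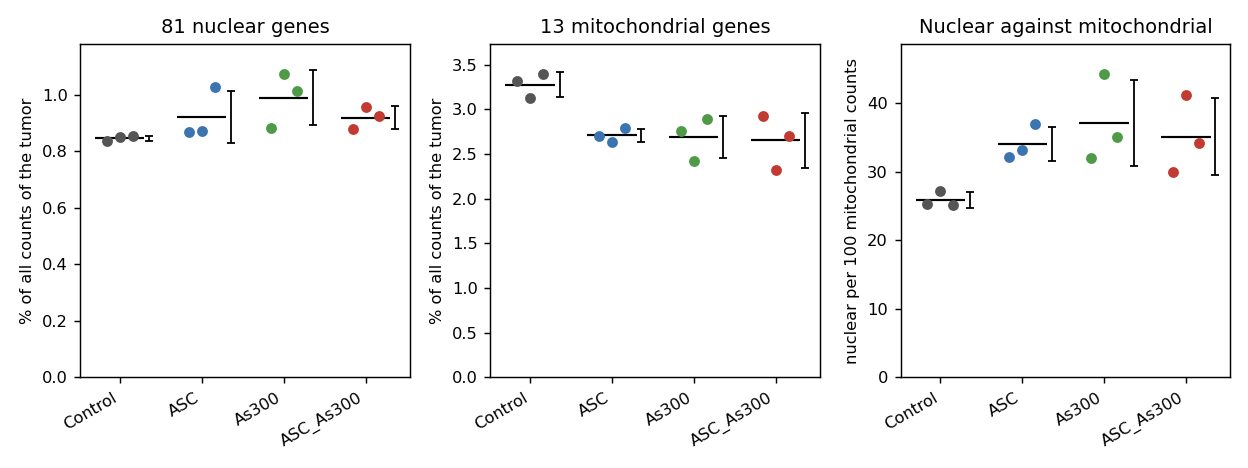
Share of a tumor's counts held by the 81 nuclear and the 13 mitochondrial OXPHOS genes (percent) and nuclear counts per 100 mitochondrial counts. Points are tumors, horizontal lines are means and whiskers are SD (n = 3), and the Control tumors lie below all others at 25.1 to 27.2 nuclear counts per 100 mitochondrial counts, against 29.965 to 44.2 in the other 9 tumors.

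Against Control, most nuclear OXPHOS genes were higher in As300 tumors and 6 passed the test, while the 13 mitochondrial genes were lower and 2 passed. With each tumor corrected for GC content, no OXPHOS gene was called and the mitochondrial median turned from -0.22 to 0.20. Genes counted as called had an edgeR quasi-likelihood p-value that stayed under 0.05 after Benjamini-Hochberg adjustment over 20818 genes, together with a 1.5-fold change or more. In As300, 74 of 81 nuclear genes were higher, with a median log2 fold change of 0.37, while 47.5% of all tested genes were higher and their median was -0.03. The 6 nuclear genes called higher stand beside 0.701% of all tested genes called higher, and the 2 mitochondrial genes called lower beside 0.355% called lower. By the adjusted p-value alone, 10 nuclear genes passed higher (1.58% of all genes). The 3 As300 tumors lay above the 3 Control tumors for 53 nuclear genes (14.5% of all genes) and below them for Ndufs1 and Uqcrc2 (15.4%). At an unadjusted p-value under 0.05 there were 54 nuclear genes higher (11.2% of all genes) and 4 mitochondrial genes lower (13%).

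ASC and ASC_As300 tumors had no OXPHOS gene past the edgeR test. In ASC, 74 of 81 nuclear genes were higher (49.5% of all tested genes) with a median log2 fold change of 0.23, 23 lay above Control without overlap (9.94%), and 34 had an unadjusted p-value under 0.05 in that direction (8.55% of all genes). edgeR called 0.706% of all genes higher and 0.0144% lower in ASC, and DESeq2 called 2 nuclear genes higher beside 2.53% of all genes. In ASC_As300, 72 of 81 nuclear genes were higher (47.3%) with a median of 0.21 and 37 lay above Control without overlap (13.5%). Of these 81 genes, 23 had an unadjusted p-value under 0.05 (8.7% of all genes), DESeq2 called 0, and edgeR called 0.783% of all genes higher and 0.024% lower. The 13 mitochondrial genes were lower in both, with median log2 fold changes of -0.23 in ASC and -0.31 in ASC_As300, and 3 and 8 of them had an unadjusted p-value under 0.05 (6.87% and 6.5% of all genes were lower so), with 0 called by DESeq2. With the correction for GC content these medians were -0.00309 and -0.012. The 3 comparisons share the Control tumors, so that their directions are not independent of each other.

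**Figure D2:**
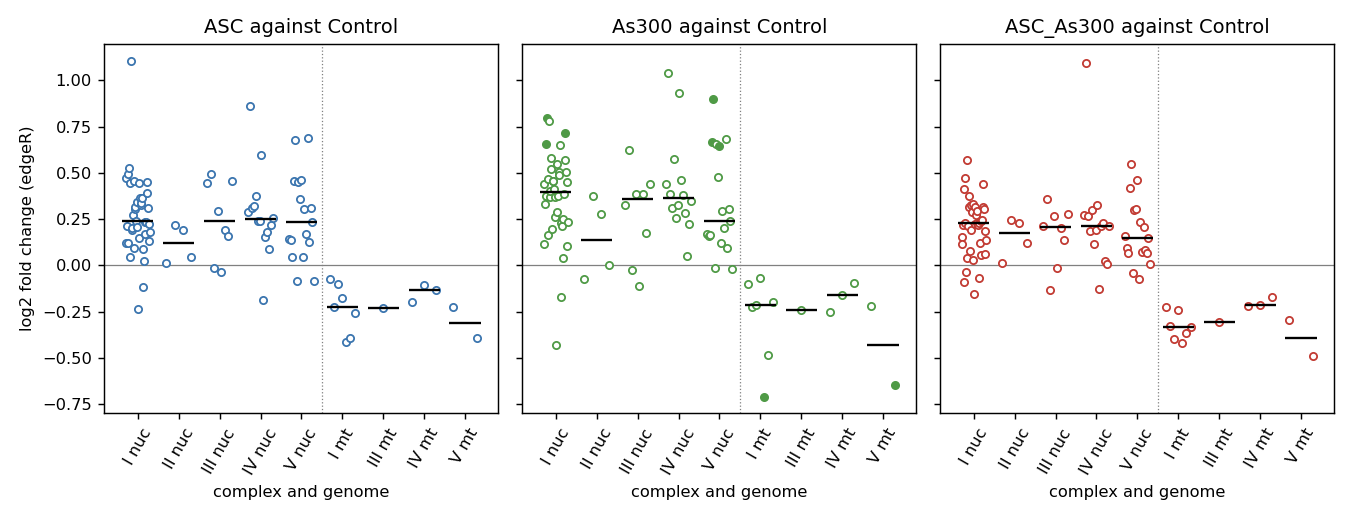
Log2 fold change of each of the 94 OXPHOS genes against Control by complex, nuclear (nuc) and mitochondrial (mt) apart, in ASC, As300 and ASC_As300 tumors. Filled points are called genes (6 nuclear and 2 mitochondrial, all in As300), open points are not called, black lines are medians, and the 13 mitochondrial genes lie below 0 in each panel.

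The nuclear genes called higher in As300 belonged to complexes I and V. Atp5e, the small epsilon subunit of the ATP synthase stalk, was at 45.8, 49.4 and 43.7 CPM in Control and at 74.1, 99.6 and 85.4 CPM in As300. It was at 60.4, 73.9 and 88.1 CPM in ASC and at 56.7, 76.4 and 70.3 CPM in ASC_As300. All 9 treated tumors lay above Control, and the log2 fold change in As300 was 0.90 ± 0.15 (SE, edgeR adjusted p = 0.0401). Atp5d, the delta subunit of the same stalk, was at 151.7, 151.1 and 143.8 CPM in Control and 222.2, 260.3 and 225.9 CPM in As300, a log2 fold change of 0.67 ± 0.14 (SE, edgeR adjusted p = 0.043). Atp5g3, which encodes a copy of subunit c of the membrane ring, was at 152.5, 146.6 and 149.5 CPM in Control and 209.0, 263.1 and 229.0 CPM in As300, a log2 fold change of 0.64 ± 0.13 (SE, edgeR adjusted p = 0.043).

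Of the complex I genes, Ndufa13, an accessory subunit also known as Grim19, had the narrowest Control values of the called genes. It was at 54.6, 54.7 and 54.5 CPM in Control, 74.9, 97.1 and 86.4 CPM in As300, 66.4, 81.5 and 83.1 CPM in ASC and 68.1, 68.2 and 81.4 CPM in ASC_As300. The log2 fold change in As300 was 0.66 ± 0.11 (SE, edgeR adjusted p = 0.0401). Ndufa2, another accessory subunit, was at 38.4, 40.8 and 38.6 CPM in Control and 53.3, 70.1 and 80.9 CPM in As300, a log2 fold change of 0.80 ± 0.16 (SE, edgeR adjusted p = 0.043). Ndufs7, a core subunit that carries an iron-sulfur cluster, was at 45.4, 48.1 and 46.9 CPM in Control and 74.4, 81.7 and 74.5 CPM in As300, a log2 fold change of 0.72 ± 0.14 (SE, edgeR adjusted p = 0.043). For Ndufa2 and Ndufs7, too, no treated tumor of any group overlapped with Control.

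**Figure D3:**
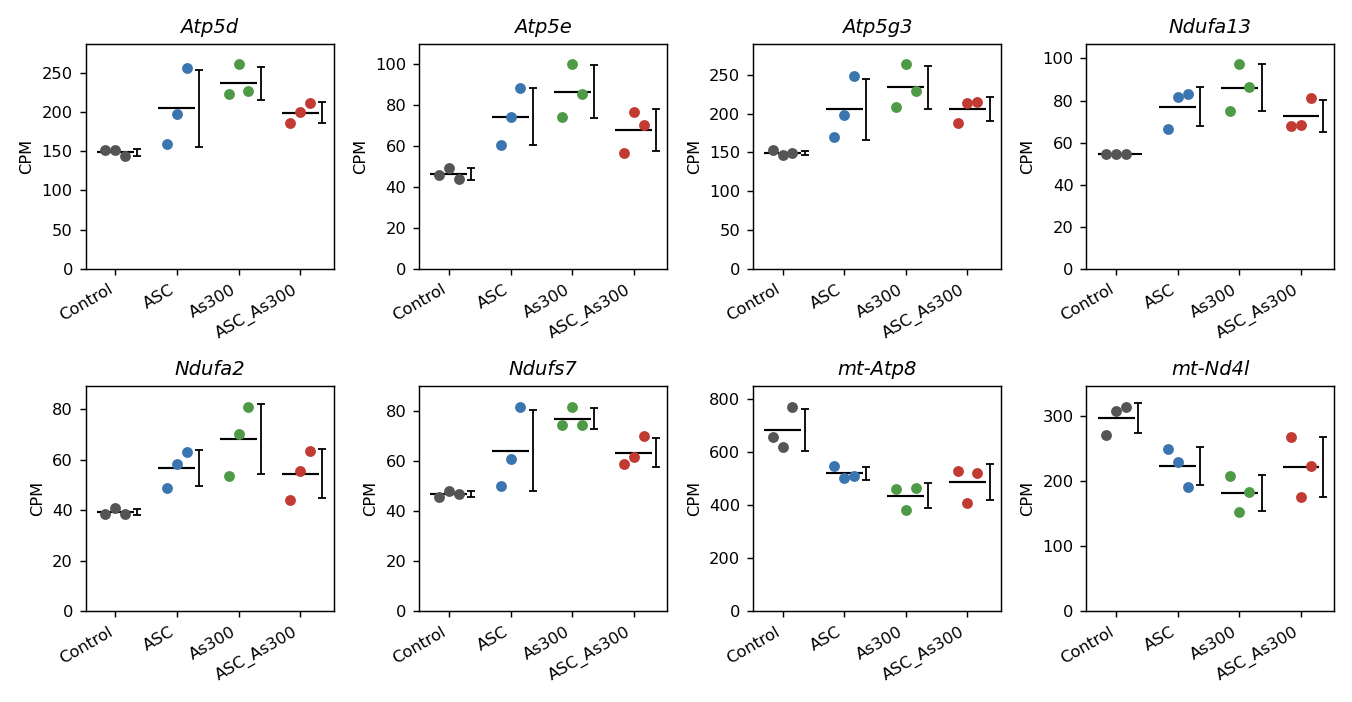
CPM (counts normalized by TMM and depth) in each of the 12 tumors for the 6 nuclear and 2 mitochondrial OXPHOS genes called in As300. Points are tumors, lines are means and whiskers are SD (n = 3); all As300 tumors lie above Control for the nuclear genes and below Control for mt-Atp8 (382.7 to 465.2 against 619.6 to 771.0) and mt-Nd4l.

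These calls sit close to the threshold. The count of 6 nuclear genes became 0 without any 1 of the Control tumors, without ASC replicate 2, without As300 replicate 2 or 3, or without any 1 of the ASC_As300 tumors, and it was 5 without As300 replicate 1, 9 without ASC replicate 3 and 11 without ASC replicate 1. Shares of all genes called are not given for these fits without a tumor, so the counts cannot be read as particular to OXPHOS genes. DESeq2 called 13 of the 81 nuclear genes higher, beside 2.89% of all genes. Over all alternatives tried, the log2 fold changes of the 6 genes were above 0, from 0.35 at the lowest (Ndufa13, corrected for GC content) to 1.00 at the highest (Atp5e, without As300 replicate 1).

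The other 4 nuclear genes past the adjusted p-value in As300 changed by less than 1.5-fold. They were Cox6a1 of complex IV (log2 fold change 0.57), Ndufb11 and Ndufv1 of complex I (0.46 and 0.45) and Uqcrfs1, the Rieske iron-sulfur protein of complex III (0.39), with edgeR adjusted p-values of 0.043 to 0.0453. Ndufv1 binds NADH and is the entry point of electrons into complex I.

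Among the other subunits chosen as central to each complex, direction and size differed. Ndufs1, the largest iron-sulfur subunit of complex I, was lower in all 3 comparisons, by -0.12 in ASC, -0.17 in As300 and -0.07 in ASC_As300 on the log2 scale. In complex II, Sdha, the flavoprotein that oxidizes succinate, was at 0.01, -0.07 and 0.01, with 182.1 to 206.3 CPM in Control and 179.0 to 185.3 CPM in As300, while its partner Sdhb was at 0.22, 0.37 and 0.24. Uqcrc1 of complex III was at 0.29, 0.39 and 0.26, and Cox5a of complex IV at 0.31, 0.39 and 0.26. Atp5a1 and Atp5b, the alpha and beta subunits that form the catalytic head of ATP synthase, were at 0.17 and 0.16 in As300. None of these 7 genes passed the edgeR test in any of the 3 comparisons, and the lowest adjusted p among them in As300 was 0.075 (Uqcrc1).

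By complex, the median log2 fold change of nuclear genes in As300 was 0.39 for complex I (36 of 38 higher), 0.14 for complex II (3 of 4), 0.36 for complex III (6 of 8), 0.36 for complex IV (14 of 14) and 0.24 for complex V (15 of 17). The 7 nuclear genes that were not higher in As300, named after their values were seen, were Ndufb4c, Ndufs1, Sdha, Uqcrb, Uqcrc2, Atp5f1 and Atp5s, between -0.43 and -0.01. Within complexes IV and I, the largest changes that did not pass the test were those of low genes. They were Cox4i2 in complex IV at 1.04 and Ndufa4l2, placed in complex I by its symbol, at 0.78. Cox6c2, also counted in complex IV, did not pass either, and its change lay between 0.72 and 1.09 over the alternatives tried. Complexes were assigned by gene symbol alone, so that Ndufa4 and Ndufa4l2 count with complex I. The largest in complexes II and III were Sdhb at 0.37 and Uqcr11 at 0.62 (edgeR adjusted p = 0.0562). Ndufb4c and Cox6c2, annotated as processed pseudogenes, are near copies of Ndufb4 and Cox6c. They share 100% and 52.8% of their 50-base words with other genes, so that counts of these pairs could have been split between them.

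Several subunits have a second form that is known from muscle, lung or cells under low oxygen. Cox4i1, the common form, was at 345.9 to 374.9 CPM in Control and 453.0 to 555.4 CPM in As300 (log2 fold change 0.44, edgeR adjusted p = 0.0511), and Cox4i2, which is known to be induced by hypoxia, was at 0.412 to 1.07 CPM in Control and 1.12 to 2.25 CPM in As300. Ndufa4l2, also known as a hypoxia gene, was at 2.69 to 4.26 CPM in Control and 5.16 to 11.01 CPM in ASC without overlap, a log2 fold change of 1.11 ± 0.37 (SE, edgeR adjusted p = 0.19), while Ndufa4 was at 0.04. Without ASC replicate 2, which held the 11.01 CPM, the change of Ndufa4l2 was 0.66. That tumor also held the most white adipocyte markers of its group (510.5 CPM). The same was so for pericyte and smooth muscle (271.9 CPM), endothelial (247.5 CPM) and skeletal muscle markers (457.1 CPM). The part of these cells was not tested. A list of 12 hypoxia genes held a summed 3459 to 4097 CPM in Control and 2845 to 3987 CPM in ASC. Of the muscle forms, Cox6a2 was high in 2 single tumors of different groups. It was at 7.31 CPM in Control replicate 2 and 8.03 CPM in As300 replicate 1 and between 0.195 and 1.96 CPM in the other tumors, and it is among the 8 genes under the minimum.

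The same 2 tumors held the most skeletal muscle RNA. A list of 12 skeletal muscle markers summed to 2247 CPM in Control replicate 2 and 2182 CPM in As300 replicate 1, and to 2.89 to 457.1 CPM in the other 10 tumors. Cox6a1, the common form of the same subunit, was at 108.6 CPM in Control replicate 2 against 112.3 and 116.0 CPM in the other Control tumors. Cox7a1, the muscle form of another complex IV subunit, was at 1.301 and 1.304 CPM in Control replicates 1 and 2, which differ in muscle markers (2.89 and 2247 CPM). It ranged from 0.412 to 1.304 CPM in Control and from 0.838 to 2.28 CPM in As300. The 2.28 CPM was in As300 replicate 1, which held 2182 CPM of muscle markers, and was the highest of the 12 tumors. Cox7a2 ranged from 69.3 to 72.0 CPM in Control and from 83.6 to 99.7 CPM in As300. Cox6b1 had a log2 fold change of 0.25 in As300, and its testis form Cox6b2 stayed at or under 0.606 CPM in every tumor. Cox8a was at 143.6 to 156.6 CPM in Control and 181.7 to 207.0 CPM in As300. Cox8b, the muscle and brown fat form, was at 0 to 1.78 CPM and highest in Control replicate 1. It was at 0 in 5 tumors, As300 replicates 2 and 3 and the 3 ASC_As300 tumors.

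Every mitochondrial gene was lower in As300 than in Control on average, and the sizes differed within the set. The largest changes were those of mt-Nd4l and mt-Atp8. mt-Atp8, which encodes a small membrane subunit of ATP synthase, was at 656.5, 619.6 and 771.0 CPM in Control and 461.1, 382.7 and 465.2 CPM in As300. It was at 547.4, 503.4 and 508.4 CPM in ASC and at 527.2, 407.2 and 522.9 CPM in ASC_As300. All treated tumors lay below Control, and the log2 fold change in As300 was -0.64 ± 0.12 (SE, edgeR adjusted p = 0.041). mt-Nd4l, a small membrane subunit of complex I, was at 270.6, 306.7 and 314.1 CPM in Control and 208.3, 152.9 and 183.5 CPM in As300, with a log2 fold change of -0.71 ± 0.16 (SE, edgeR adjusted p = 0.0448). Both calls were kept without ASC replicate 1 or without ASC replicate 3, and the count of 2 fell to 0 without any other single tumor.

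The other 11 mitochondrial genes did not pass the test in As300. mt-Nd5, the largest mitochondrial subunit of complex I, was at 2370 ± 101.9 CPM (SD, n = 3) in Control and 1695 ± 283.4 CPM in As300 without overlap, a log2 fold change of -0.48 (edgeR adjusted p = 0.0752). mt-Co1 was at 10560 ± 817.2 CPM in Control and 8861 ± 352.0 CPM in As300, a log2 fold change of -0.25, again without overlap (-0.16 without Control replicate 3). mt-Cytb, the only mitochondrial subunit of complex III, was at -0.24, mt-Co2 and mt-Co3 of complex IV at -0.16 and -0.09, and mt-Atp6 of ATP synthase at -0.22. The remaining complex I genes mt-Nd1, mt-Nd2, mt-Nd3, mt-Nd4 and mt-Nd6 lay between -0.23 (mt-Nd2) and -0.07 (mt-Nd4). mt-Nd6 is the only one of the 13 genes encoded on the light strand.

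Both called mitochondrial genes lie directly before a larger gene with which they share bases and, as is known, a bicistronic transcript. mt-Atp8 shares 43 of its 204 bases with mt-Atp6, and mt-Nd4l shares 7 of its 297 bases with mt-Nd4. The junctions are printed because a read from them can belong to either gene, and the capitals mark the shared bases with 30 bases on each side, read from the GENCODE reference transcripts.
mt-Atp8 to mt-Atp6: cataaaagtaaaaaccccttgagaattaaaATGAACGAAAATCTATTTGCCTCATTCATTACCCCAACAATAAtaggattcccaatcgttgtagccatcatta
mt-Nd4l to mt-Nd4: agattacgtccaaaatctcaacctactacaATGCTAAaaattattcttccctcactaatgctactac
Within each pair, the first gene had the larger change in As300. There were 25.1, 28.4 and 28.2 mt-Atp8 counts per 100 mt-Atp6 counts in Control and 19.9, 20.2 and 20.5 in As300, with 21.9 to 27.5 in ASC and 23.2 to 24.6 in ASC_As300. mt-Nd4l counts per 100 mt-Nd4 counts were 10.9, 14.6 and 14.1 in Control and 8.69, 8.04 and 8.38 in As300, with 9.03 to 14.0 in ASC and 11.2 to 11.9 in ASC_As300. The As300 tumors lay below the tumors of all other groups in both ratios, and as single values chosen after they were seen they were not tested.

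**Figure D4:**
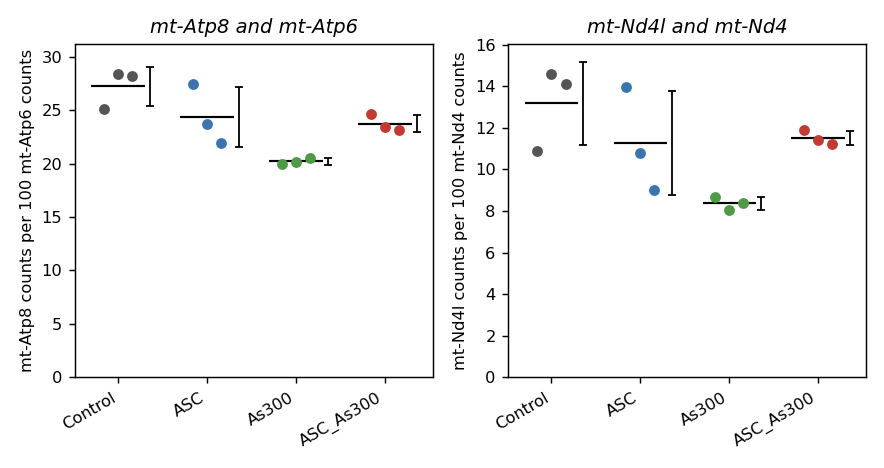
Counts of mt-Atp8 per 100 counts of mt-Atp6 and of mt-Nd4l per 100 counts of mt-Nd4 in each of the 12 tumors. Points are tumors, lines are means and whiskers are SD (n = 3), and the As300 tumors are lowest in both panels at 19.9 to 20.5 and 8.04 to 8.69.

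Several mitochondrial genes have near-identical copies in the nuclear genome with rows of their own. Over the 12 tumors, the copy Gm10925 held 104.6 counts per 100 counts of mt-Atp6, Gm28661 97.3 per 100 of mt-Co2, Gm28437 99.5 per 100 of mt-Co3, Gm28438 102.9 per 100 of mt-Nd3 and Gm10222 99.5 per 100 of mt-Nd4l. Gm28439 held 35.6 per 100 of mt-Nd4 and Gm29216 11.9 per 100 of mt-Co1. The copies were named after their values were seen. The first 5 hold about as many counts as their mitochondrial gene and the last 2 hold fewer, and whether reads were counted in both rows or divided between them was not tested. Summing each gene with its copies gave the same 2 calls in As300, with mt-Nd4l at -0.70 and mt-Atp8, which has no such copy, at -0.65.

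The mitochondrial and nuclear genes also differ in base composition and length, and the changes of all tested genes differed with these properties. The transcripts of the 13 mitochondrial genes had 31.9% to 41.1% GC, and those of the 81 nuclear genes a median of 51.0% GC and 865 bases. Over all tested genes, the median log2 fold change in As300 was -0.32 for transcripts under 42% GC and 0.23 at 55% GC and over, and it was 0.18 under 1 kb and -0.18 at 4 kb and over. In ASC the medians of the lowest and highest GC class were -0.18 and 0.14, and in ASC_As300 -0.23 and 0.16. With each tumor corrected for GC content, mt-Co1 turned to 0.07 in As300, and mt-Atp8 and mt-Nd4l were at -0.14 and -0.43, with 0 of the 13 called. The 6 nuclear calls were lost as well, at log2 fold changes from 0.35 (Ndufa13) to 0.77 (Atp5e). With a correction for transcript length, the nuclear median was 0.19 and the mitochondrial median -0.39, with 0 calls in either. The part of base composition and length in the OXPHOS differences was not tested.

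**Figure D5:**
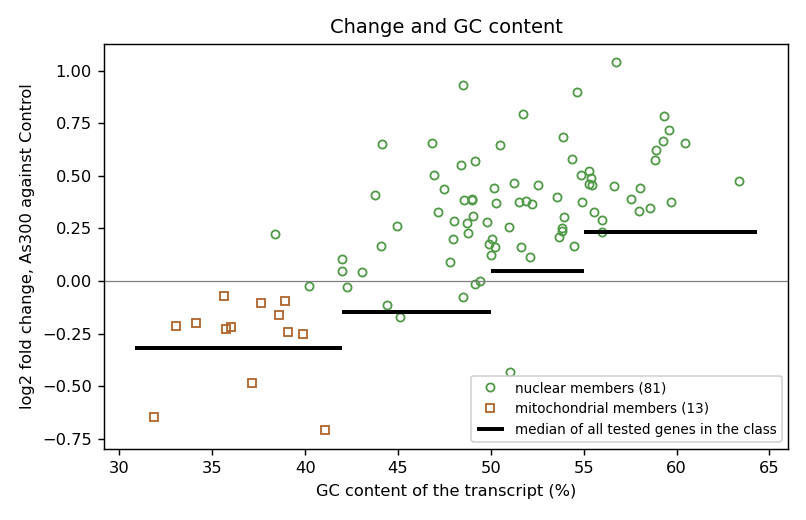
GC content of the transcript (percent) and log2 fold change in As300 against Control for the 81 nuclear (circles) and 13 mitochondrial (squares) OXPHOS genes. Black bars are medians of all tested genes in 4 classes of GC content, from -0.32 under 42% to 0.23 at 55% and over; most nuclear genes lie above the bar of their class, as do 10 of the 13 mitochondrial genes, and mt-Nd4l, mt-Atp8 and mt-Nd5 lie below theirs.

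Sequences before nuclear OXPHOS genes are known for binding sites of NRF1, of ETS factors such as GABPA, of YY1, of ERR receptors and of CREB. RefSeq promoters (250 bases before to 50 after the start, GRCm38.p6) matched 63 of the 81 nuclear genes. On either strand, the ETS letters CCGGAAG were in 25.4% of them and in 9.93% of all 27025 genes with a promoter, the NRF1 letters GCGCATGC in 15.9% and 3.05%, and the YY1 letters AAGATGGC in 14.3% and 3.19%. The ERR letters AAGGTCA were in 12.7% and 5.38%, and the CRE letters TGACGTCA in 6.35% and 2.03%. Shown are the promoters of the 3 called genes that hold any of these letters, with the letters in capitals: ETS and ERR in Atp5e, ERR in Atp5g3 and YY1 in Ndufs7.
Atp5e, chr2:174464052-174464351, minus strand: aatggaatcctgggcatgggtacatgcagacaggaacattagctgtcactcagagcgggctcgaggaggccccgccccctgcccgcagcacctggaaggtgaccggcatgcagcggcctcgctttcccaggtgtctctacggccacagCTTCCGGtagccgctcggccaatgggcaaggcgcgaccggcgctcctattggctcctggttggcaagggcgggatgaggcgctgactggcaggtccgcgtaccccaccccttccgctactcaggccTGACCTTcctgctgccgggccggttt
Atp5g3, chr2:73911277-73911576, minus strand: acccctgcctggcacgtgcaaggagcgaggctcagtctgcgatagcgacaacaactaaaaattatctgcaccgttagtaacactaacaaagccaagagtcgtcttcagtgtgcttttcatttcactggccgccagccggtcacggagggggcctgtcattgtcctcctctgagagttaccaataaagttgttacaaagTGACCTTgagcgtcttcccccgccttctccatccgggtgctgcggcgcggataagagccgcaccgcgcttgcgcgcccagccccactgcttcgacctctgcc
Ndufs7, chr10:80249199-80249498, plus strand: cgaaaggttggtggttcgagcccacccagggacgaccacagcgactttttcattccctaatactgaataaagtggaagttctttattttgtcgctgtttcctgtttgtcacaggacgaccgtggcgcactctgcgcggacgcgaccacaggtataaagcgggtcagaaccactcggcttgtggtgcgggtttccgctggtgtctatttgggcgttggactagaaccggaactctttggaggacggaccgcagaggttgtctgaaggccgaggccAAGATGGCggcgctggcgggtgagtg
Atp5d and Ndufa13 held none of the 5 motifs in this window. For Ndufa2, the remaining called nuclear gene, no promoter with these letters was found.

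Esrra, which encodes the receptor ERR alpha, was among the tested regulators. It had a log2 fold change of 0.55 ± 0.11 (SE) in As300, with an edgeR adjusted p of 0.043, under the 1.5-fold minimum. It was the only one of 13 tested regulators past the adjusted p-value (1.58% of all genes passed higher), and 3 of the 13 were higher (47.5% of all genes). Gabpa, which encodes the ETS factor above, was at -0.44, Ppargc1b, a coactivator of mitochondrial genes with low counts, at -1.15, and Ppard at 0.28, none of them past the test.

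Genes that build and serve the complexes moved in different directions in As300. Of all tested genes, 47.5% were higher, 0.701% were called higher and 1.58% passed the adjusted p-value higher. Of 78 tested mitochondrial ribosomal protein genes, 67 were higher with a median log2 fold change of 0.17. One was called, Mrps24 at 0.90 ± 0.15 (SE, edgeR adjusted p = 0.0401), and Mrps16 and Mrpl52 passed the adjusted p-value at 0.48 and 0.57. Of 51 tested assembly factors, 36 were higher with a median of 0.10, and Coa3, an assembly factor of complex IV, passed the adjusted p-value at 0.52. Of 29 genes that express mitochondrial DNA, 6 were higher with a median of -0.08, and Fastkd2, an RNA-binding protein of mitochondria, was at -0.46 and the transcription factor Mterf2 at -0.62, both short of the test. Of 21 genes of the tricarboxylic acid cycle, 10 were higher with a median of 0.00, and Dld, a shared subunit of its dehydrogenases, passed the adjusted p-value lower at -0.39. Of the 5 electron carriers, 3 were higher, with Cyc1, the cytochrome c1 of complex III, at 0.47 (edgeR adjusted p = 0.0612) and cytochrome c itself, Cycs, at -0.16.

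In ASC and ASC_As300, these lists had 0 genes past the adjusted p-value. The mitochondrial ribosomal genes had 63 and 57 of 78 higher with medians of 0.12 and 0.08, and the assembly factors 37 and 34 of 51 higher with medians of 0.13 and 0.06. Genes that express mitochondrial DNA had 5 and 9 of 29 higher. Of all tested genes, 49.5% were higher in ASC and 47.3% in ASC_As300. Among the mitochondrial ribosomal genes, an unadjusted p-value under 0.05 was found for 13 higher and 1 lower in ASC (8.55% and 6.87% of all genes) and for 11 higher and 3 lower in ASC_As300 (8.7% and 6.5%).

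Adding iAs to ASC, or ASC to iAs, moved no OXPHOS gene past the test. In ASC_As300 against ASC, 27 of 81 nuclear genes were higher with a median of -0.04, and 0 of the 94 genes had an unadjusted p-value under 0.05 (1.47% of all genes were higher so and 1.74% lower), and edgeR called 0% of all genes. In ASC_As300 against As300, 72 of 81 nuclear genes were lower with a median of -0.14, and 7 nuclear genes had an unadjusted p-value under 0.05, all lower (3.65% of all genes), with edgeR calling 0.793% of all genes higher and 0.0624% lower. Over both iAs levels, ASC gave medians of 0.05 for nuclear and -0.14 for mitochondrial genes and 0 members under an unadjusted p-value of 0.05 (6.93% of all genes were higher so and 3.96% lower). edgeR called 1.36% of all genes higher and 0.0865% lower for this effect. Over both ASC levels, iAs gave medians of 0.15 and -0.14, and 25 nuclear genes higher (7.51% of all genes) and 4 mitochondrial genes lower (8.46%) at an unadjusted p-value under 0.05, with 0% of all genes called. DESeq2 called 0 members in these 4 comparisons.

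The interaction asks whether the change with ASC and iAs together differed from the sum of the changes with each alone. Its log2 value was below 0 for 74 of 81 nuclear genes with a median of -0.39, and above 0 for 11 of 13 mitochondrial genes with a median of 0.12. At an unadjusted p-value under 0.05 there were 41 nuclear genes below 0 (6.55% of all genes) and 3 mitochondrial genes above 0 (7.08%). edgeR called 0 members and 0% of all genes, with an adjusted p of 0.309 for the lowest. DESeq2 called 7 of the 78 nuclear genes it adjusted, all below 0, beside 1.05% of all genes. Atp5e had the lowest unadjusted p-value of the nuclear genes, with an interaction of -1.03 ± 0.21 (SE) on the log2 scale, and Ndufa13 followed at -0.74 ± 0.16. The interaction uses the same Control tumors, in which the share of nuclear counts was lowest.

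Markers of other cells also differed between the groups. The summed level of 8 white adipocyte markers was 91.3 to 242.9 CPM in Control and 21.7 to 46.4 CPM in As300, and that of 8 neuron markers was 66.7 to 87.1 and 104.4 to 168.8 CPM. Ranges of As300 and Control overlapped for 8 leukocyte markers (259.8 to 469.5 and 297.9 to 356.8 CPM), 7 epithelial markers (66.6 to 362.7 and 97.8 to 120.1 CPM), 6 endothelial markers, 10 pericyte and smooth muscle markers, 5 brown adipocyte markers, 5 heart and slow muscle markers and the skeletal muscle markers. Against the same Control values, the white adipocyte markers were at 17.9 to 510.5 CPM in ASC, with overlap, and at 11.7 to 34.2 CPM in ASC_As300, without overlap. The summed epithelial markers were at 31.3 to 48.8 CPM in ASC and 27.3 to 39.9 CPM in ASC_As300, below all Control tumors in both. Their median log2 difference from the Control mean overlapped with Control in both groups. It ran from -0.77 to 1.055 in Control, -1.28 to -0.21 in ASC and -0.87 to -0.07 in ASC_As300. In ASC_As300 the sums of the brown adipocyte markers (0.553 to 2.83 against 3.12 to 18.8 CPM) and the pericyte and smooth muscle markers (129.2 to 163.4 against 163.5 to 263.4 CPM) also lay below Control. By the median log2 difference both lists overlapped with Control. The medians were -3.45 to -1.97 against -2.27 to 2.11 for brown adipocyte markers. For pericyte and smooth muscle markers they were -0.69 to -0.11 against -0.24 to 0.17. Up to 2 of the white adipocyte markers, up to 4 of the brown adipocyte markers and up to 2 of the neuron markers were at 0 in a tumor. The part of these cells in the OXPHOS values was not tested. Control replicate 1 stood apart on the first principal component, at -101.8, and held 362.7 CPM of the epithelial markers. Total counts ran from 39157647 to 55168642 per tumor.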

How the data were processed

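RNA from 12 tumors in 4 groups of 3 was sequenced as poly(A) RNA with a stranded kit. According to the paper and the labels, the authors trimmed paired-end reads with Cutadapt 1.1.0, aligned them to the mouse genome with HISAT2 2.0 and quantified them with StringTie 1.3.4 and Ballgown. The deposited values are whole-number counts per Ensembl gene without normalization; the step that made them and the genome build are not given in the sources used here. Gene symbols, transcript GC content and lengths came from a GENCODE annotation of the mouse.

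Counts were analysed in R 4.3.3 with edgeR 4.0.16. Genes were filtered with filterByExpr by group (20818 of 55401 kept) and normalized by TMM. The quasi-likelihood fit held the 12 tumors together, with the 4 group means as its terms. Calls combine an adjusted p-value (Benjamini-Hochberg, over every tested gene) under 0.05 with a fold change of 1.5 or more, which is 0.585 in log2 units. Each treated group was compared with Control and ASC_As300 with both single treatments, and the main effects of ASC and iAs and their interaction were tested, 8 comparisons in all. For groups of 3, the smallest p-value of an exact permutation test is 0.1. The labels number the replicates but do not name mice. Since the paper combines both flanks of a mouse, replicates are taken as separate mice here. Counting error adds to the spread of low genes such as Cox4i2 and Cox7a1, whose lowest count was 19.

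The members, lists and tests were chosen with earlier results of these data known. Named are every mitochondrial gene, called genes (up to 10 per comparison, by adjusted p-value) and the nuclear gene with the largest change per complex in As300 against Control. The paired forms of Cox4i, Cox6a, Cox6b, Cox7a, Cox8 and Ndufa4 are named too. So are the highest and lowest level per length in a complex and up to 4 genes of a pathway list by p-value. Central subunits of each complex are also named (Ndufs1, Ndufv1, Sdha, Sdhb, Uqcrc1, Uqcrfs1, Cox5a, Atp5a1 and Atp5b). One further subunit of that list is not reported here. Genes named otherwise are said to be chosen after their values were seen. Alternatives were DESeq2 1.42.0 and its size factors, normalization without mitochondrial genes, other filters and thresholds, only the tumors compared, the replicate number as a block, and leaving out each tumor. Corrections for GC content and transcript length, and sums of mitochondrial genes with their copies, were added after seeing the data. On simulated data for As300 against Control (20818 genes), edgeR called 50% of 50 genes changed by 1 on the log2 scale. Those genes were drawn at random from all tested genes. Changes smaller than 1, as those of most OXPHOS genes, were not simulated.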

Additional observations from a re-analysis of the deposited data

How the results depend on the processing

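The nuclear count of 6 calls in As300 against Control became 13 with DESeq2, 11 with at least 10 counts in every tumor, 10 with no minimum fold change, 10 with only the 6 tumors compared and 54 with unadjusted p-values. It became 0 with no filter on low counts and 0 with a correction for GC content or for transcript length, and it ran from 0 to 11 when 1 tumor was left out. The mitochondrial count of 2 in the same comparison became 4 with unadjusted p-values and 0 with no filter or either correction, and ran from 0 to 2 when 1 tumor was left out. In ASC, the nuclear count of 0 became 2 with DESeq2, 1 with at least 10 counts in every tumor and 34 with unadjusted p-values, and ran from 0 to 8 when 1 tumor was left out (8 without ASC replicate 1). With unadjusted p-values the mitochondrial count was 3 in ASC, 8 in ASC_As300 against Control, 4 for the iAs effect and 3 for the interaction, and the nuclear count was 23 in ASC_As300 against Control, 7 against As300, 25 for the iAs effect and 41 for the interaction. The nuclear count of the interaction was 7 with DESeq2. Of all genes in As300 against Control, 2.89% were called higher with DESeq2, 1.58% with no minimum fold change and 11.2% with unadjusted p-values. In ASC these shares were 2.53% with DESeq2 and 8.55% with unadjusted p-values. Shares of all genes are not given for the other filters, the fits of only the tumors compared or the left-out tumors. Those counts therefore cannot be read as particular to OXPHOS genes. The cause of these differences was not tested.

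The median log2 fold change of the mitochondrial genes under the GC correction was 0.20 in As300, against -0.22, and it was -0.00309 in ASC and -0.012 in ASC_As300. mt-Co1 in As300 turned to 0.074 under the same correction. Under the length correction the medians in As300 were 0.19 for nuclear and -0.39 for mitochondrial genes, and the nuclear median in ASC was 0.092. Leaving out 1 tumor gave nuclear medians of 0.16 to 0.36 in ASC, 0.28 to 0.39 in As300 and 0.15 to 0.29 in ASC_As300, and mitochondrial medians of -0.24 to -0.15 in ASC, -0.28 to -0.13 in As300 and -0.38 to -0.17 in ASC_As300. The mitochondrial median moved by over 1.5 times without Control replicate 1 in ASC (-0.15), without As300 replicate 2 in As300 (-0.13) and without ASC_As300 replicate 2 in ASC_As300 (-0.17), and the nuclear median without ASC replicate 1 in ASC (0.36).

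With the replicate number as a block, 1 nuclear gene was called in ASC against Control, and no other count of calls moved by over 1.5 times. Tumors with the same number showed little common deviation (18 correlations from -0.124 to 0.172, 2 of them over 0.1). Taken over all tested genes after removal of the group means, these correlations cannot exclude a shared batch or a pairing. With 3 tumors per group, changes near the threshold can be missed.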
